A study of Mus musculus with 18 samples.

Results

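Ephrins and Eph receptors were followed in RNA of microglia, the macrophages of the brain, sorted from mouse hippocampi at E17.5, late in gestation. The genes asked for were 10, namely the receptors Epha3, Epha4, Epha5, Epha7, Ephb1 and Ephb2 and the ligands Efna5, Efnb1, Efnb2 and Efnb3. All array probe sets that name exactly 1 of these genes were taken, which gave 28 of 34958 single-gene probe sets, for 9 of the 10 genes. Ephb2 had no single-gene probe set in the annotation used and was not analysed here. A probe set is a group of short probes against 1 transcript region, and its value is a log2 level from RMA, so a step of 1 is a doubling. Levels of different probe sets cannot be set against each other, so each was followed only across arrays. Of the 28, 22 probe sets of 8 genes passed the filter on low values (a mean over all arrays of at least log2 2.49) and were tested. The 6 that did not pass were both of Efna5, 3 of Epha7 and 1 of Efnb1.

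Every array held RNA of microglia on the C57BL/6 background, sorted as cells positive for GFP under Cx3cr1 control and pooled from the embryos of a dam, with sex unknown. The PBS group (4 arrays) were wild-type embryos of PBS-treated dams and the LPS group (4 arrays) wild-type embryos of dams given lipopolysaccharide, a bacterial endotoxin that triggers inflammation. Untreated wild-type embryos (UT, DAP12+/+) gave 6 arrays, and untreated embryos with a DAP12-/- mutation (DAP12KO) gave 4. DAP12, the product of Tyrobp, is an adaptor protein that passes on the signals of microglial surface receptors. The study set LPS against PBS and DAP12KO against UT. The sources used here do not give the time of the LPS injection or the stretch of Tyrobp that the mutation removes.

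Each label also carries a year, with no word on what it stands for, and the years are numbered here 1 to 4 in order of time. In year 1 there were 1 LPS and 1 PBS array, in year 2 there were 2 of each, and in year 3 there were 2 UT arrays. All 4 DAP12KO arrays fell in year 4, with the other 4 UT arrays and 1 array each of LPS and PBS. The year was kept as a term in the fit, save in the alternatives that say otherwise.

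Eph receptors form the largest family of receptor tyrosine kinases, and their ligands, the ephrins, are tethered to the membrane of the neighbouring cell. EphA receptors mainly bind the lipid-anchored ephrin-As and EphB receptors the transmembrane ephrin-Bs, while EphA4 binds ligands of both classes. Binding sends a signal into both cells, and in the embryonic brain it guides axons by repulsion, sets boundaries between cell groups and shapes synapses. In the hippocampus these genes are best known from neurons and their progenitors.

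The promoters of 3 members are shown, chosen by the brightest tested set of each gene. Among the brightest tested sets of all genes, that of Ephb1 was the most similar to that of Efnb2 over the arrays. The brightest set of Efnb1 hardly moved, and it repeated the same value (7.28) on arrays of every group. Each sequence is the 250 bases before the gene's start in RefSeq (GRCm38.p6), read on the gene's strand: Efnb2 at chr8:8661243-8661492 (minus), Ephb1 at chr9:102354694-102354943 (minus) and Efnb1 at chrX:99135811-99136060 (plus). Capitals mark the GC box letters GGGCGG and the CCAAT letters on either strand.

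Efnb2: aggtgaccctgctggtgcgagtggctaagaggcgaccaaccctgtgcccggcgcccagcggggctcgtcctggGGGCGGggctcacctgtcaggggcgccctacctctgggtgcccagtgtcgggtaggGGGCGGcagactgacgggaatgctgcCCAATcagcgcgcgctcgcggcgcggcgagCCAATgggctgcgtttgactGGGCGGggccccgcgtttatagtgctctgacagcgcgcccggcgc

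Ephb1: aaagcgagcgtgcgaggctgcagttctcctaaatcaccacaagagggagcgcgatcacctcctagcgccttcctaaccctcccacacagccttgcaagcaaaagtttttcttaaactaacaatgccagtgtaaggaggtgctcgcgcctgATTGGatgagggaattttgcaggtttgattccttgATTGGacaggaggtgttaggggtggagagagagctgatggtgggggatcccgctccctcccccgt

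Efnb1: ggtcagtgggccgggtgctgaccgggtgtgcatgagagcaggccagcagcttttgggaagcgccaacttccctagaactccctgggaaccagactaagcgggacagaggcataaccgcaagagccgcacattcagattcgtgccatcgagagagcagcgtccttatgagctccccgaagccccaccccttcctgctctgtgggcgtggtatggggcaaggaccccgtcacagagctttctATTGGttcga

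The Efnb2 window held 3 GC boxes and 2 CCAAT matches, none of them overlapping, and 1 match to TATAAA on either strand. The Ephb1 window held 0 GC boxes and 2 CCAAT matches, and the Efnb1 window 0 GC boxes and 1 CCAAT match. Over 32851 promoters of the same length, 32.7% held GGGCGG, 33.8% CCAAT and 12.4% TATAAA. The share of G and C bases was 72% for Efnb2, 54% for Ephb1 and 60% for Efnb1, against a median of 52.4%. These matches describe letters only. Promoters of 9 of the 10 genes were in the table used.

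Microglia genes were bright on every array. The mean of 20 microglia markers was 13.25 to 13.54 in UT, 13.36 to 13.55 in DAP12KO, 12.52 to 13.37 in LPS and 11.30 to 13.40 in PBS, and none of the 20 stood near the floor (under log2 2.49) on all arrays of a group. Both PBS arrays of year 2 stood apart: their microglia mean was lowest (11.30 and 11.58), their mean of 21 neuron markers highest (11.07 and 11.21, against 6.38 to 9.63 on the other 16 arrays), and their mean of 15 progenitor and radial glia markers highest (10.74 and 10.83). They were also highest for pericyte and fibroblast (7.31 and 6.46) and choroid plexus markers (10.07 and 8.72). The same held for astrocyte and oligodendrocyte precursor (7.16 and 6.33) and interneuron markers (4.74 and 4.76). It did not hold for endothelial or blood and other myeloid markers. Tyrobp itself, on 1 probe set, was 13.75 to 14.23 in DAP12KO and 14.29 to 14.55 in UT. These ranges did not overlap (0.569% of all tested probe sets had every DAP12KO array lower). The fitted difference was −0.60 ± 0.13 (SE; limma adjusted p = 0.480). The DAP12KO level stayed far above the floor, so the signal of this probe set was somewhat lower but not absent. The sources used here do not say whether it lies outside the removed stretch.

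**Figure D1:**
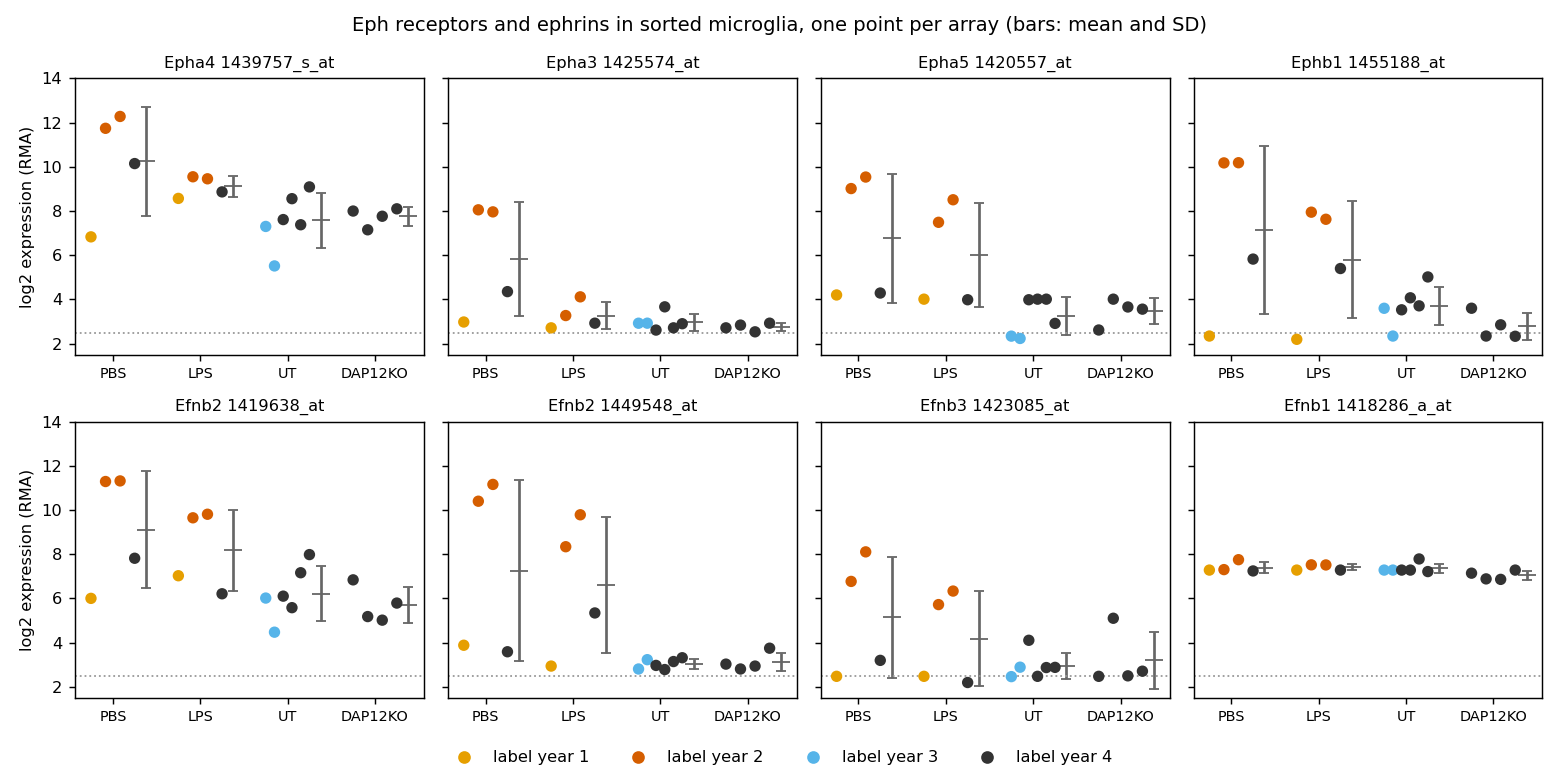
Log2 expression (RMA) of 8 probe sets, 1 point per array, by group and coloured by label year; the bar beside each group is its mean and SD, and the dotted line is the floor at log2 2.49. Both PBS arrays of year 2 are at the top of each panel except that of Efnb1 1418286_a_at, where the values lie between 6.86 and 7.78 on all 18 arrays.

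The comparison of LPS with PBS asked how maternal inflammation changes fetal microglia. Receptor and ephrin probe sets mostly had lower values in LPS than in PBS: the fitted difference was below 0 for 20 of 22, where 56.2% of all tested probe sets were below 0. The median difference was −1.19 on the log2 scale over the members and −0.10 over all tested probe sets. Both values rested in large part on the PBS arrays of year 2, without which 15 of 22 were below 0 (54.2% of all tested probe sets) with a median of −0.27 (−0.07 over all). None of the 22 passed limma's test at an adjusted p of 0.05, beside 6 of 22512 tested probe sets (0.0267%). At an unadjusted p under 0.05 there were 11 members, all lower, against 8.71% of all tested probe sets lower at that level. When arrays were weighted by how well they fitted, 13 of 22 were called, all lower, beside 6.27% of all tested probe sets called lower. The weights were 1.57 to 2.88 for the 4 arrays of year 2 and 0.27 for both of year 1. Each of these counts of lower members includes Efnb1 1418285_at. Its mean reached the filter in PBS alone, so it had to be lower in LPS. No member had LPS and PBS ranges that did not overlap (1.39% of all tested probe sets had every LPS array lower). In the same samples 20 of 21 neuron markers (median difference −1.03) and 14 of 15 progenitor markers (−1.11) were below 0, and 20 of 20 microglia markers were above 0 (0.44), with none called. Of the other lists, 6 of 6 pericyte and fibroblast, 3 of 3 endothelial and 2 of 2 choroid plexus markers were below 0. So were 5 of 5 blood and other myeloid, 4 of 5 astrocyte and oligodendrocyte precursor and 5 of 8 interneuron markers, with none called either. Their part in the results on the members was not tested. The arrays hold RNA of pooled cells, so fewer cells of a type and less RNA per cell cannot be told apart.

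**Figure D2:**
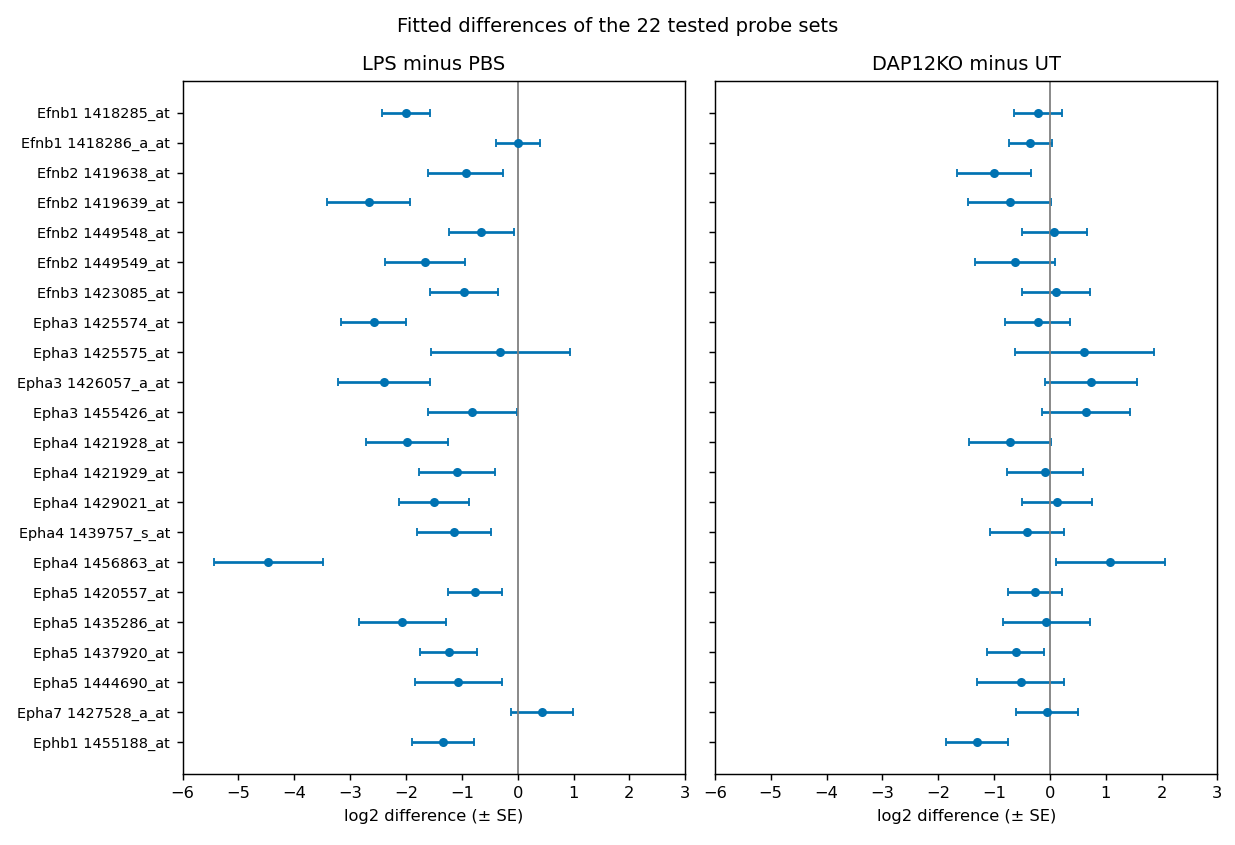
Fitted log2 differences with standard errors for the 22 tested probe sets, LPS minus PBS on the left and DAP12KO minus UT on the right. On the left 20 of 22 points lie below 0, down to −4.47 for Epha4 1456863_at; on the right 15 lie below 0 and 7 above.

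Among the EphA receptors, Epha4, which answers to both ephrin classes, had 5 probe sets, and 3 of them were well above the floor on every array. For 1439757_s_at the PBS arrays read 6.83 (year 1), 11.74 and 12.28 (year 2) and 10.15 (year 4). The LPS arrays read 8.57 (year 1), 9.55 and 9.46 (year 2) and 8.86 (year 4). Within PBS the levels spanned more than 5 log2 units, while those of LPS lay within 1 unit of each other and inside the PBS range. UT ran from 5.51 through a median of 7.49 to 9.09, with both arrays of year 3 (7.30 and 5.51) at the bottom of the range. The DAP12KO arrays read 8.0, 7.15, 7.76 and 8.10, inside the UT range. As means the order was PBS 10.25 ± 2.45 (SD, n = 4), LPS 9.11 ± 0.47 (n = 4), DAP12KO 7.75 ± 0.43 (n = 4) and UT 7.58 ± 1.23 (n = 6). PBS and LPS, and likewise DAP12KO and UT, differed by less than the larger of their SDs. Among the LPS and PBS arrays, only those of year 4 (8.86 and 10.15) share a label year with DAP12KO. The LPS minus PBS difference was −1.14 ± 0.66 (SE; limma adjusted p = 0.504). It was 1.74 in year 1, −2.51 in year 2 and −1.28 in year 4, and 0.23 without both PBS arrays of year 2.

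The probe set 1421929_at followed the same course over the 18 arrays (Pearson r 0.90 with 1439757_s_at), with PBS at 7.47, 12.39, 12.56 and 9.55 and LPS at 9.30, 10.21, 10.62 and 7.47, in order of year. Its difference was −1.09 ± 0.68 (SE). The identical value 7.4679 recurred on PBS of year 1, LPS of year 4 and UT replicate 3 of year 4. What this repeat stands for was not tested, so the differences within years 1 and 4 of this set are uncertain. Other member sets hold repeated values too, among them Epha5 1420557_at (4.0097), Efnb2 1449549_at (3.7801) and Efnb3 1423085_at (2.4726). Their differences within the years concerned are uncertain in the same way. For 1429021_at PBS read 8.72, 12.27, 11.64 and 9.83 and LPS 8.72, 9.72, 8.48 and 9.56, with a difference of −1.49 ± 0.62. In all these sets both PBS arrays of year 2 were above the other 16 arrays, and without them the differences of 1421929_at and 1429021_at were −0.13 and −0.14.

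Both dimmer sets of Epha4 gave steeper contrasts. For 1456863_at PBS read 2.55 (year 1), 9.26 and 9.83 (year 2) and 8.12 (year 4), and LPS read 2.36, 2.90, 3.94 and 2.69. In year 2 and year 4 every LPS array was thus more than 4 log2 units below its PBS counterparts, and in year 1 both arrays were at or close to the floor. The fitted difference was −4.47 ± 0.97 (SE; adjusted p = 0.10), with LPS below the PBS mean of its year on 4 of 4 arrays. Without LPS replicate 3 of year 1 it was −5.90 with an adjusted p of 0.0107, the same without PBS replicate 4 of year 1. Either omission takes out the whole LPS minus PBS contrast of year 1. These fits called 141 and 144 of 22512 tested probe sets, beside 6 with all arrays, and 2 of 22 members each. Without both PBS arrays of year 2 the fitted difference was −2.81 (adjusted p = 0.407). For 1421928_at PBS read 3.47, 7.41, 7.54 and 4.52 and LPS 3.47, 3.58, 4.50 and 3.47, with a difference of −1.98 ± 0.73 (adjusted p = 0.281). Here too an identical value, 3.4688, recurred on PBS of year 1 and on LPS of years 1 and 4. The fitted difference was below 0 for all 5 sets on 18 arrays, but the years did not share that direction. In year 1 the values of 1439757_s_at and 1421929_at were 1.74 and 1.83.

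Epha3, a receptor for ephrin-As, had 4 probe sets whose LPS and PBS values diverged most in year 2. For 1425574_at PBS read 2.98 (year 1), 8.05 and 7.96 (year 2) and 4.35 (year 4), and LPS read 2.71, 3.27, 4.11 and 2.92. Only the PBS arrays of year 2 were high, and the next highest array was that of PBS in year 4. UT read from 2.61 through 2.91 to 3.66 and DAP12KO 2.71, 2.84, 2.53 and 2.92. The LPS minus PBS difference was −2.58 ± 0.58 (SE; adjusted p = 0.107), with −0.26 in year 1, −4.32 in year 2 and −1.43 in year 4. Leaving out 1 of the LPS or PBS arrays of year 1 or year 4 brought the adjusted p to between 0.0139 and 0.0492. Each such omission takes out the whole LPS minus PBS contrast of that year, so these fits lean more on year 2. They called 141 to 243 of 22512 tested probe sets, beside 6 with all arrays. Leaving out both PBS arrays of year 2 brought the difference to −0.85 (adjusted p = 0.482).

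The other sets of Epha3 did not share 1 direction over the years. For 1426057_a_at PBS read 3.82, 6.93, 7.92 and 4.01 and LPS 2.59, 3.47, 4.13 and 2.91, with a difference of −2.40 ± 0.82 (adjusted p = 0.255) and LPS lower in each year. For 1425575_at PBS read 2.19, 9.34, 9.61 and 3.44 and LPS 4.91, 6.41, 5.71 and 6.30. There LPS was higher in year 1 and year 4 (by 2.72 and 2.85) and lower in year 2 (a difference of −3.42), so that the fitted value of −0.32 ± 1.24 became 2.79 without both PBS arrays of year 2. For 1455426_at, with a fitted difference of −0.81 ± 0.79, the same omission gave 1.34. Pairs of the 4 sets correlated over arrays at r of 0.49 to 0.78.

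Epha5, another receptor of ephrin-As, had 4 tested sets, of which 1420557_at was high in label year 2 in both groups. There PBS read 4.20 (year 1), 9.02 and 9.54 (year 2) and 4.29 (year 4), and LPS read 4.01, 7.49, 8.51 and 3.98. The 4 arrays of year 2 lay above all 14 others, and LPS was below PBS in each year, most in year 2 (a difference of −1.28). UT read from 2.23 through 3.45 to 4.01 and DAP12KO 2.61, 4.01, 3.66 and 3.56. The LPS minus PBS difference was −0.76 ± 0.49 (SE; adjusted p = 0.553). The sets 1435286_at, 1437920_at and 1444690_at had differences of −2.06 ± 0.77, −1.23 ± 0.51 and −1.06 ± 0.78, with adjusted p of 0.294, 0.340 and 0.615. On 1435286_at the LPS arrays of year 2 read 3.88 and 3.46, inside the UT range (up to 5.34), against 8.02 and 7.24 in PBS. Without both PBS arrays of year 2 the differences were −0.25, −0.16, −0.36 and 0.80, in the order of the 4 sets. For 1437920_at all DAP12KO arrays stood at the lowest value on the arrays, 2.19.

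Epha7, a receptor that is widely expressed in the embryonic cortex, was near the floor in nearly all microglia arrays. The only tested set, 1427528_a_at, read 2.19, 2.99, 3.65 and 2.19 in PBS and 2.19, 2.19, 2.49 and 5.88 in LPS. The LPS value of 5.88 came from the array of year 4 alone, and without it the difference of 0.43 ± 0.56 (SE) turned to −0.65. UT reached 2.43 and DAP12KO stayed at 2.19. Of the other 3 sets, 1452380_at was at 2.19 on all 18 arrays, 1451991_at exceeded 3 only in both PBS arrays of year 2 (3.97 and 3.40), and 1443485_at exceeded 3 on 2 arrays (3.47 in LPS replicate 2 of year 2 and 4.40 in UT replicate 6).

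Ephb1, the EphB receptor among the measured members, binds ephrin-Bs and is known for axon guidance. Its probe set 1455188_at read 2.34 (year 1), 10.18 and 10.18 (year 2) and 5.82 (year 4) in PBS and 2.19, 7.95, 7.63 and 5.40 in LPS. Here the arrays ordered by label year, with year 1 near the floor, year 4 between and year 2 on top in both groups. In UT the values ran from 2.34 through 3.65 to 5.02. The group means were 7.13 ± 3.80 (SD, n = 4) for PBS, 5.79 ± 2.65 (n = 4) for LPS, 3.71 ± 0.87 (n = 6) for UT and 2.78 ± 0.60 (n = 4) for DAP12KO. The LPS minus PBS difference was −1.34 ± 0.56 (SE; adjusted p = 0.341), and −0.15, −2.39 and −0.43 within years 1, 2 and 4. Without both PBS arrays of year 2 it was −0.29.

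Among the ligands, Efnb2, a transmembrane ephrin of axons and blood vessels, had 4 tested sets. For 1419638_at PBS read 6.00 (year 1), 11.29 and 11.32 (year 2) and 7.82 (year 4), and LPS read 7.03, 9.65, 9.81 and 6.21. Again the 4 arrays of year 2 exceeded all others, with PBS above LPS in that year. UT ran from 4.47 through 6.06 to 7.98 and DAP12KO read 6.84, 5.18, 5.01 and 5.79. The group means were 9.11 ± 2.64 (SD, n = 4) in PBS, 8.17 ± 1.83 (n = 4) in LPS, 6.22 ± 1.23 (n = 6) in UT and 5.70 ± 0.83 (n = 4) in DAP12KO. The LPS minus PBS difference was −0.93 ± 0.66 (SE; adjusted p = 0.606), and −0.29 without both PBS arrays of year 2.

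The set 1449548_at showed the year most plainly. PBS read 3.88 (year 1), 10.40 and 11.16 (year 2) and 3.58 (year 4), and LPS read 2.94, 8.34, 9.78 and 5.34. UT and DAP12KO stayed between 2.78 and 3.75. Its LPS minus PBS difference was −0.66 ± 0.58 (SE), and 0.41 without both PBS arrays of year 2. For 1419639_at PBS read 8.30, 10.42, 9.06 and 6.41 and LPS 6.38, 7.88, 6.16 and 3.10. LPS was lower in each year, with differences of −1.92, −2.72 and −3.31, and the fitted difference of −2.67 ± 0.74 (adjusted p = 0.176) was −2.62 without both PBS arrays of year 2. The fourth set, 1449549_at, had a difference of −1.65 ± 0.72 (adjusted p = 0.362), and −1.43 without both PBS arrays of year 2. Within years 1, 2 and 4 its differences were −0.23, −1.88 and −2.63.

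Efnb3, a transmembrane ephrin of the embryonic midline and of synapses, had 1 probe set, 1423085_at. PBS read 2.47 (year 1), 6.77 and 8.11 (year 2) and 3.19 (year 4), and LPS read 2.47, 5.72, 6.33 and 2.19. Outside label year 2 the level was near the floor or little above it, apart from UT replicate 1 (4.10) and DAP12KO replicate 2 (5.10). The LPS minus PBS difference was −0.96 ± 0.61 (SE; adjusted p = 0.550), and −0.50 without both PBS arrays of year 2.

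Efnb1, an X-linked transmembrane ephrin, gave 2 tested sets that went separate ways (r 0.44 over arrays). The bright set 1418286_a_at read 7.28, 7.30, 7.75 and 7.24 in PBS and 7.28, 7.52, 7.51 and 7.28 in LPS. UT ran from 7.21 through 7.28 to 7.78, and DAP12KO read 7.14, 6.88, 6.86 and 7.28. All 18 arrays thus lay within 1 log2 unit, and the LPS minus PBS difference was 0.00 ± 0.39 (SE). Arrays of every group shared the identical value 7.2814, among them both UT arrays of year 3. What this repeat stands for was not tested, so a steady transcript cannot be read from this set. The dim set 1418285_at read 4.59 (year 1), 4.97 and 5.49 (year 2) and 2.19 (year 4) in PBS, while 4 of 4 LPS and 4 of 4 DAP12KO arrays were near the floor. It was the only member whose mean reached the filter in PBS alone, so it had to be lower elsewhere, and the floor limits the size of the difference. The fitted LPS minus PBS value was −2.01 ± 0.43 (SE; adjusted p = 0.0944). It was −2.68 without LPS replicate 3_2 or PBS replicate 2 of year 4 (adjusted p = 0.00263 and 0.00262) and −1.16 without both PBS arrays of year 2 (adjusted p = 0.352). Either omission in year 4 takes out the whole LPS minus PBS contrast of that year. Over all 22512 tested probe sets these omissions in year 4 gave 243 and 233 calls, beside 6 with all arrays. Efna5, a lipid-anchored ephrin, read between 2.19 and 2.24 on all arrays in both of its sets, and the third set of Efnb1, 1451591_a_at, exceeded 3 only in DAP12KO replicate 4 (5.15).

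The comparison of DAP12KO with UT asked what loss of DAP12 changes, and no ephrin or Eph receptor passed the test. The fitted difference was below 0 for 15 probe sets and above 0 for 7 of 22, where 48.5% of all tested probe sets were below 0. The median was −0.22 (0.02 over all tested probe sets). With limma 0 of 22 members and 0 of 22512 probe sets (0%) were called, and array weights also gave 0 of 22. At an unadjusted p under 0.05 there was 1 member, beside 5.48% of all tested probe sets. That member was Ephb1, with DAP12KO at 3.60, 2.34, 2.85 and 2.33 and the UT arrays of year 4 at 3.53, 4.07, 3.71 and 5.02. Its DAP12KO values were below the UT mean of year 4 on 4 of 4 arrays, the ranges overlapped, and the difference was −1.30 ± 0.56 (SE; adjusted p = 0.874).

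For the other members the standard errors were as large as or larger than most of the differences. The Epha4 set 1439757_s_at had −0.41 ± 0.66, 1429021_at 0.12 ± 0.62 and 1421929_at −0.08 ± 0.68. Efnb2 had −1.0 ± 0.66 for 1419638_at and 0.08 ± 0.58 for 1449548_at. Efnb1 1418286_a_at had −0.35 ± 0.39 and Efnb3 0.11 ± 0.61. The largest value above 0, 1.08 ± 0.97 for Epha4 1456863_at, came from DAP12KO replicate 4 (6.72, the others 2.55 to 2.66). The same array had 6.90 for Epha3 1426057_a_at, where the other DAP12KO arrays read 2.59 to 2.92. The neuron marker mean was 6.80 to 7.68 in DAP12KO and 6.38 to 8.09 in UT, and the progenitor mean 6.77 to 7.81 and 6.07 to 7.46.

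The LPS response minus the DAP12KO response was tested as an interaction. No member passed limma's test (lowest adjusted p = 0.571, Epha4 1456863_at), beside 1 of 22512 probe sets (0.00444%). At an unadjusted p under 0.05 there were 4 members against 8.19% of all tested probe sets. With array weights 2 members were called, beside 0.244% of all tested probe sets.

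Because so many members were high in the arrays of year 2, the fitted difference of year 2 minus year 4 is given as a description, with no test, since the same values prompted it. It rests on 4 arrays of year 2 and on the LPS and PBS array of year 4. It was above 0 for 20 of 22 members (53.7% of all tested probe sets), with a median of 2.18 over the members and 0.06 over all tested probe sets. Without both PBS arrays of year 2 it was above 0 for 15 of 22 (52.7%), with a median of 0.85 and 0.04.

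The ephrin Efnb2 had 5.46 ± 0.71 (SE) on 1449548_at and 3.50 ± 0.81 on 1419638_at, which became 4.40 and 2.86 without these PBS arrays. Epha5 had 4.50 ± 0.59 on 1420557_at (3.99 without them) but −0.42 ± 0.63 on 1437920_at. Efnb3 had 4.04 ± 0.74 (3.58) and Ephb1 3.37 ± 0.68 (2.32). Epha4 1439757_s_at and Epha3 1425574_at had 1.25 ± 0.80 and 2.21 ± 0.71, and −0.12 and 0.48 without the PBS arrays. Year 2 thus stood apart in its LPS arrays too for Efnb2, Efnb3, Ephb1 and 1 set of Epha5, while for these sets of Epha4 and Epha3 most of the difference came with the PBS arrays. Both PBS arrays of year 2 were above all 16 others in 18 of 22 members, beside 11.2% of all tested probe sets. All 4 arrays of year 2 were above the other 14 in 6 of 22, beside 3.21%: Efnb2 1419638_at and 1449548_at, Efnb3, Ephb1, Epha4 1421929_at and Epha5 1420557_at.

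The LPS arrays of year 2 had neuron marker means of 9.48 and 9.63 and progenitor means of 8.34 and 8.71. The LPS array of year 4 had 8.09 and 8.16. The year and these marker levels moved together, and their part in the levels of the members was not tested.

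Neuronal RNA was measured as the mean log2 level of Tubb3, a neuronal tubulin, and Stmn2, a stathmin of growing axons. It ran from 8.54 in PBS replicate 4 of year 1 to 12.84 in PBS replicate 1 of year 2, with UT between 8.92 and 11.11 and DAP12KO between 10.23 and 10.97. Over the 18 arrays all 22 members correlated with it above 0, at a median Pearson r of 0.68 (range 0.27 to 0.86), while the median over all tested probe sets was 0.03. An r of at least 0.7 was reached by 9 of 22 members, beside 3.75% of all tested probe sets. These correlations are a description, given with no test, since the arrays share label years and the 2 PBS arrays of year 2 have both high members and high neuronal RNA.

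Epha4 1439757_s_at came first with r 0.86 (Spearman rho 0.83), and 0.08% of all tested probe sets had as high an r. Its other bright sets followed at 0.82 (1429021_at, rho 0.66) and 0.81 (1421929_at, rho 0.73). Efnb2 1419638_at had 0.81 (rho 0.77) and Ephb1 0.80 (rho 0.73). Efnb1 stood at the low end for this measure, with 0.27 (rho 0.21) for 1418286_a_at and 0.35 (rho 0.01) for 1418285_at.

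**Figure D3:**
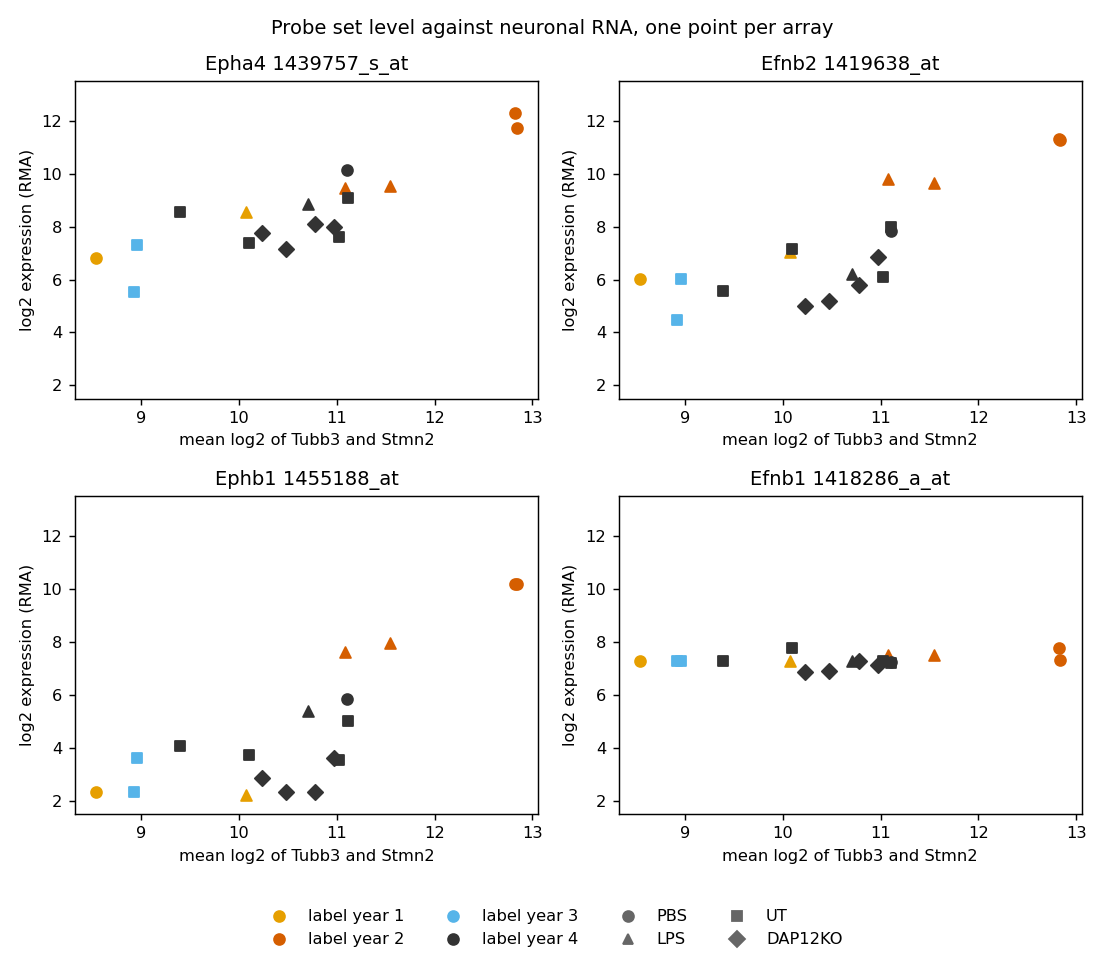
Log2 expression of 4 probe sets (vertical axis) against the mean log2 level of Tubb3 and Stmn2 (horizontal axis), 1 point per array, coloured by label year and shaped by group. Epha4 (r 0.86), Efnb2 (0.81) and Ephb1 (0.80) are highest where both PBS arrays of year 2 lie, near 12.8, while Efnb1 1418286_a_at is flat (0.27).

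The relation depended on which arrays were used. Without the 2 arrays farthest from the median neuronal level (PBS replicate 4 of year 1 and PBS replicate 1 of year 2) the median r was 0.64. Without both PBS arrays of year 2 it was 0.36 over 16 arrays, with 19 of 22 members above 0 (53.17% of all tested probe sets). An r of at least 0.7 was then reached by 1 of 22, beside 0.24% of all tested probe sets. Within label year 4 (10 arrays, the only year with 6 or more) the median was 0.11, near the 0.06 of all tested probe sets. In that year 13 of 22 were above 0, near the 55.27% of all tested probe sets. An r of at least 0.7 was reached there by 0 of 22, beside 2.43%. There Efnb2 1419638_at had 0.52, Epha4 1429021_at 0.45 and 1439757_s_at 0.32, and Ephb1 0.27, while Epha5 1435286_at had −0.77. For the deviations of each array from its group and year the median was 0.28, with 0.68 for Efnb2 1419638_at and 0.63 for Epha4 1439757_s_at.

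**Figure D4:**
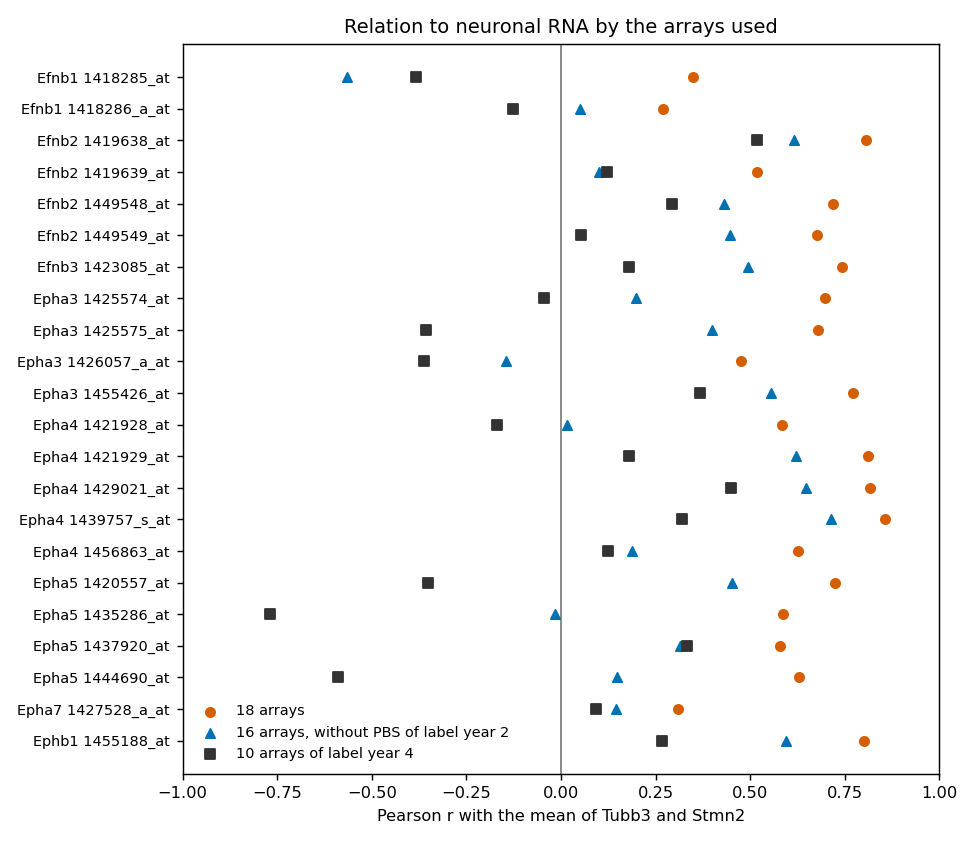
Pearson r of each tested probe set with the mean of Tubb3 and Stmn2 over 18 arrays (circles), over 16 arrays without the PBS arrays of year 2 (triangles) and over the 10 arrays of label year 4 (squares). The circles lie between 0.27 and 0.86; the median falls to 0.36 for the triangles and to 0.11 for the squares.

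Over the 18 arrays, markers other than Tubb3 and Stmn2 ran the same way, and these r were not taken without both PBS arrays of year 2. The members' median r was 0.77 with the mean of the other neuron markers and 0.78 with the progenitor and radial glia mean. An r of at least 0.7 was reached by 14 and 16 of 22, beside 7.97% and 8.07% of all tested probe sets. The median r was −0.74 with the microglia mean, with 0 of 22 above 0 (50.1% of all tested probe sets). Ephb1, for example, had 0.80 with Tubb3 and Stmn2, 0.90 with the progenitor mean and −0.76 with the microglia mean. Efnb1 1418285_at had 0.67 with the other neuron markers, 0.69 with the progenitor mean and −0.80 with the microglia mean. For Efnb1 1418286_a_at these were 0.53, 0.39 and −0.40. Of the 21 neuron markers, Nefl was near the floor on all DAP12KO arrays and Nefl and Nefm on all UT arrays. With the mean of Tubb3 and Stmn2 as a covariate in the fit 0 of 22 members were called in LPS minus PBS, 19 of 22 were below 0 (55.4% of all tested probe sets), and the median was −0.91. The difference moved by over 1.5 times for Efnb2 1419638_at (to −0.51), Epha4 1439757_s_at (to −0.73) and Epha3 1455426_at (to −0.38), and that of Epha3 1425575_at turned to 0.024. For Epha4 1456863_at, Epha3 1425574_at and Efnb1 1418285_at it was −4.12, −2.31 and −1.98 (adjusted p = 0.0978, 0.101 and 0.0908).

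The genes with the most similar profiles over the 18 arrays were taken for each member from its brightest tested set, out of 11098 genes. For Epha5 they were Dnajc6 (r 0.97), Ikzf4 (0.96) and Cdk5r2 (0.96), and 88 genes reached an r of 0.9. For Efnb3 they were Gpr85 (0.97), Shank3 (0.97) and Dnajc6 (0.95). Ephb1 went with Col2a1 (0.95), Bcr (0.94) and Mmp11 (0.94). Efnb2 went first with Ephb1 (0.93), a receptor of its own class, then with Ociad2 (0.93) and Elk1 (0.92).

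Epha4 was most like Gpm6a (0.90), Map1b (0.90), a microtubule protein of growing neurites, and Zbtb18 (0.89). For Epha3 the nearest were Sdc1 (0.88), Cntnap2 (0.83) and Dscam (0.83). Epha7, which rests on few arrays above the floor, was nearest to Cmtr2 (0.94), B3gnt9 (0.91) and Gulp1 (0.91). Efnb1 had the weakest neighbours, Diras1 (0.80), Jph3 (0.79) and Ric3 (0.78).

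Of the 12 other Eph and ephrin genes, 3 passed the filter and none was called in either comparison. Efna3 and Efna2, ligands of EphA receptors, had LPS minus PBS differences of −1.27 ± 0.61 and −0.83 ± 0.84 (SE), and Ephb3 had 0.07 ± 0.37. In DAP12KO minus UT the values were −0.59 ± 0.61, −0.78 ± 0.84 and −0.51 ± 0.37. Downstream partners were taken as a list of 38 genes, of which 31 were tested, and 0 were called in either direction in either comparison. In LPS minus PBS 14 were above 0 and 17 below, with a median of −0.11 beside −0.10 over all tested probe sets. Among the lowest p were those of the scaffold Grip1 (−1.50 ± 0.53, adjusted p = 0.263) and of Chn1, which acts downstream of EphA4 (−1.92 ± 0.70, 0.275). In DAP12KO minus UT 13 were above 0 and 18 below, with a median of −0.05. There the lowest p went to Ptpro, a phosphatase that acts on Eph receptors (−1.51 ± 0.61, adjusted p = 0.874), the cofilin kinase Limk1 (−0.77 ± 0.32, 0.874) and the adaptor Crk (−0.50 ± 0.23, 0.898).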

How the data were processed

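The deposited values are log2 expression levels of 45101 probe sets on 18 Affymetrix Mouse Genome 430 2.0 arrays. The authors' step from scanned images to these log2 values was RMA, per the submitters' processing notes (the sources used here do not give its version). Per the labels' protocols, cDNA came from the Ovation Pico WTA v2 kit and its label from an Encore Biotin kit. The lowest value is log2 2.19 on every array, the median of an array was 2.78 to 3.17, and values under 2.49 are called near the floor. The number of arrays limits the precision. Each array was taken as 1 replicate, since the labels say that RNA was pooled per dam. The years in the labels are numbered 1 to 4 in order of time. The labels do not say whether LPS replicate 3_2 of year 4 shares a source with LPS replicate 3 of year 1.

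Probe sets were named from the platform annotation: 34958 named 1 gene, 932 several and 9211 none, and 34754 of the first had an Entrez match in the RefSeq gene table. Of these, 22512 (11630 genes) with a mean at or above the 40th percentile were tested, and 27.1% of them were near the floor on 1 or more arrays. One limma fit (3.58.1, R 4.3.3) held all 18 arrays (group means plus label year, 11 residual degrees of freedom, variance prior following intensity). P-values are two-sided and were adjusted by Benjamini-Hochberg across the tested probe sets, at a threshold of 0.05. DAP12KO arrays are all of year 4, so the UT arrays of year 4 set that difference. The script was tested on simulated data. Figures used matplotlib 3.10.9 in Python 3.11.15.

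Named were all member probe sets, the 3 genes of lowest p per comparison in the lists of other family genes and downstream partners (none passed the threshold, and 1 of them is not reported here), and the 3 most similar genes per member. The members and the lists were chosen with earlier results of these data known. Alternatives covered the year term, the samples fitted, the filter, the choice of probe set, a replicate block, array weights, the variance prior, neuronal RNA as a covariate and left-out arrays.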

Additional observations from a re-analysis of the deposited data

Results flagged for a closer look

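Single arrays far from the rest of their group (by Dixon's test within a group) turned up in 14 of 88 combinations of probe set and group. Chance alone gives about 1 in 20 only for independent values with a normal spread. Many of these groups hold values tied at the floor or at another repeated level, and some mix label years. Groups with all values equal are also counted among the 88. The count therefore cannot be set against that share. They were 6 in UT, 4 in DAP12KO, 3 in LPS and 1 in PBS. Every one was a high value, but a group tied at the floor leaves no room for a low one.

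In the EphA receptors, DAP12KO replicate 4 read 6.72 for Epha4 1456863_at (the others 2.55 to 2.66) and 6.90 for Epha3 1426057_a_at (2.59 to 2.92). DAP12KO replicate 5 read 8.62 for Epha3 1425575_at, where the others read 4.05 to 4.70. In UT, replicate 2 of year 4 read 3.66 for Epha3 1425574_at (2.61 to 2.92) and 5.04 for Epha5 1444690_at (2.22 to 2.70). The UT replicate 3 of year 4 read 5.03 for Epha4 1421928_at (3.25 to 3.64), and LPS replicate 2 of year 2 read 4.50 for the same set (3.47 to 3.58). LPS replicate 3_2 of year 4 read 5.88 for Epha7 1427528_a_at (2.19 to 2.49) and 3.31 for Epha5 1437920_at (all others 2.19). UT replicate 1 read 2.43 for Epha7 1427528_a_at (all others 2.19), which is still near the floor.

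In the ephrins, Efnb3 1423085_at read 5.10 in DAP12KO replicate 2 (2.47 to 2.70) and 4.10 in UT replicate 1 (2.46 to 2.89). Efnb1 1418286_a_at read 7.75 in PBS replicate 2 of year 2 (7.24 to 7.30) and 7.78 in UT replicate 3 of year 4 (7.21 to 7.28), both within 1 log2 unit of every other array.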

How the results depend on the processing

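The count of members called was 0 in DAP12KO minus UT under every alternative run, with 8 to 28 member probe sets tested. In LPS minus PBS it was 13 with array weights and 0 to 2 with 1 array left out, and in the difference of the responses 2 with array weights. Over all tested probe sets the LPS minus PBS count of 6 became 1 without the year term, 0 with only the 2 groups compared, 0 with the filter at the 60th percentile, 11 with 1 probe set per gene, 29 with neuronal RNA as a covariate, 1968 with array weights, 21 without both PBS arrays of year 2, 11 without all 4 arrays of year 2, and 1 to 243 with 1 array left out. The DAP12KO minus UT count was 0 to 5 with 1 array left out. The count of 1 for the difference of the responses became 0 with the stricter filter or 1 probe set per gene, 2 with no filter, 55 with array weights, 4 without the PBS arrays or all arrays of year 2, and 0 to 32 with 1 array left out. The members' median r with neuronal RNA, 0.68, was 0.36 without both PBS arrays of year 2 and 0.11 within year 4. The alternatives on the label year 2 and within year 4 were chosen after seeing the data. The cause of these shifts was not tested.

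Replicate numbers are shared between some groups. Same-numbered LPS and PBS arrays of year 2 deviated alike from their group means (r 0.37 and 0.42), but DAP12KO and UT arrays did not (0.02 and −0.01). These deviations still held the year, which the LPS and PBS arrays of year 2 share. They cannot tell a pair from a shared year, and the numbers were not taken to pair the samples. A replicate block gave 25 calls in LPS minus PBS and 0 members, and turned Efnb1 1418286_a_at from 0.00 to −0.001.

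Signs turned as follows, all short of the threshold in the fits named. In LPS minus PBS, leaving out both PBS arrays of year 2, or all 4 arrays of year 2, turned Epha3 1425575_at to 2.79 and 1455426_at to 1.34, Epha4 1439757_s_at to 0.23, Epha5 1444690_at to 0.80 and Efnb2 1449548_at to 0.41. The neuronal covariate turned Epha3 1425575_at to 0.024. Array weights turned Efnb1 1418286_a_at to −0.029 and Epha7 1427528_a_at to −0.39. With 1 array left out Epha3 1425575_at ran from −1.37 to 0.45, Epha7 1427528_a_at from −0.65 to 0.85 and Efnb1 1418286_a_at from −0.082 to 0.097. In DAP12KO minus UT, dropping the year term turned Epha5 1420557_at to 0.21 and 1435286_at to 0.25, and Epha4 1421929_at to 0.50 and 1439757_s_at to 0.18. Array weights turned Epha4 1421929_at to 0.15 and 1429021_at to −0.05 and Epha5 1435286_at to 0.019. With 1 array left out the ranges were −0.54 to 0.012 (Epha5 1420557_at), −0.53 to 0.47 (1435286_at) and −0.80 to 0.14 (1444690_at), −0.44 to 0.18 (Epha4 1421929_at) and −0.27 to 0.48 (1429021_at), −0.34 to 0.010 (Epha3 1425574_at), −0.43 to 1.10 (1425575_at) and −0.29 to 1.15 (1426057_a_at), −0.13 to 0.19 (Efnb2 1449548_at), −0.52 to 0.45 (Efnb3) and −0.31 to 0.026 (Efnb1 1418285_at). The neuronal covariate turned Epha4 1429021_at to −0.042.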
